A study of Drosophila melanogaster with 8 samples.

Results

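The fourth chromosome of Drosophila melanogaster was described here as the set of all GATC fragments whose chromosome entry is 4, which were 3593 of the 383682 fragments in each of 4 profiles of RNA polymerase II (Pol II) occupancy. The profiles come from targeted DamID, in which the bacterial methyltransferase Dam marks GATC sites in the cells that express it, either alone or as a fusion with Pol II. Each profile holds, for every fragment between neighbouring GATC sites, the log2 ratio of the fusion (Dam-Pol II) to Dam. A value above 0 thus means relatively more methylation by Dam-Pol II than by free Dam, and a value below 0 the reverse. The scaling that sets 0 is not given by the sources used here. There were 8 libraries in 4 groups of 2, and each Dam-Pol II library and its Dam partner are represented by 1 profile, so that 2 profiles of sucrose-fed flies (Suc) were set against 2 of flies fed sucrose with a bacteria solution (Pe). The labels describe the intestine of Pe flies as damaged. All flies were w- and carried 1 copy each of dSRF-GAL4, UAS-CD8GFP and tub-GAL80ts, and over the last of these UAS-LT3-Dam or UAS-LT3-Dam-Pol II. By this design expression was meant to be limited to dSRF-GAL4 cells, the terminal tracheal cells of the gut by the labels. Adults were aged at 18 °C for 7 days, then held at 29 °C for 24 hours with feeding over the last 16 hours, and 60 midguts with their tracheal cells were pooled for each condition and replicate.

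The fourth chromosome is the small dot chromosome of the fly. It is known for combining heterochromatin features, among them the protein HP1a and many transposon remnants, with many actively transcribed genes, and its active genes are bound along their length by POF, a protein that paints mainly this chromosome. Many of its genes are long, and they include regulators of development such as ci, the effector of Hedgehog signalling, pan, the TCF factor of Wnt signalling, and the Pax6 genes ey and toy. Coordinates are those of the deposited files, in which the last fragment of the chromosome ends at 1347894, and genes are those of a RefSeq table of Release 6. No sequence is printed, because none was used here.

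The fragments of the chromosome had a median length of 238 bp, against 184 to 202 bp on 2L, 3L, 3R and X, and at 2.67 fragments per kb they were about as dense as on those chromosomes (2.66 to 2.86). They were at 0 in all 4 profiles in 6.82% of cases, against 7.51 to 10.4%. The table lists 114 genes on it, 80 of them protein coding, or 59.4 per Mb against 93.1 to 112.9 per Mb on the other 4, and 81.2% of the fragments overlapped a gene (70.6 to 81.2% on the others). The median protein coding gene was 10.1 kb long, against 1.99 to 2.52 kb on the other 4 chromosomes.

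The profiles hold ratios and no counts, so that their depth is unknown, and the precision rests on 2 profiles per condition. Over the fragments of chromosome 4 the profiles of Suc replicate 1, Suc replicate 2 and Pe replicate 1 correlated with each other at a Pearson r of 0.791 to 0.829, and Pe replicate 2 with these 3 at 0.554 to 0.608 (n = 3593 fragments that share a library). Pe replicate 2 also had the most fragments at 0, 17.0% against 8.29 to 9.46%. Of 5 markers of terminal tracheal cells (bs, trh, btl, kni and stumps), 4 passed the occupancy test described with the genes in Suc, and 1 in Pe. So did 4 and 1 of 5 enterocyte markers, but 0 of 4 enteroendocrine and 0 of 4 neuron markers in either condition. Of 4 muscle markers 1 and 0 passed, and of the 2 haemocyte markers tested 0. Among all genes 21.3% passed in Suc and 7.55% in Pe, so that 0 of 2 or of 4 markers does not show a cell type to be absent. The mean of the 5 tracheal markers was 0.92 and 1.18 in Suc and 0.61 and 0.06 in Pe, and that of the 5 enterocyte markers 1.87 and 1.60 in Suc and 0.97 and 0.80 in Pe. The enterocyte mean was thus the higher in each profile. The part of gut cells in the values of chromosome 4 was not tested, and in these pooled tissues a lower ratio per cell and fewer cells with signal cannot be told apart.

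The first comparison set chromosome 4 against 2L, 3L, 3R and X in each profile. In the comparisons of fragments, windows, runs and gene edges, the other chromosomes and elsewhere mean these 4. Fragments of 2R and of the remaining sequences were not part of that reference. On average chromosome 4 had a ratio below 0 in every profile, on a scale whose 0 depends on an unstated scaling. Its mean log2 ratio was -0.24 in Suc replicate 1, -0.18 in Suc replicate 2, -0.14 in Pe replicate 1 and -0.05 in Pe replicate 2. The pooled fragments of 2L, 3L, 3R and X had means of 0.06, 0.20, 0.11 and 0.14 in the same order. Chromosome 4 lay below them in 4 of 4 profiles, and it also lay below each of the 4 chromosomes in every profile.

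The difference was -0.28 ± 0.08 (SD over profiles, n = 4), from -0.38 in Suc replicate 2 to -0.20 in Pe replicate 2. The exact sign-flip permutation test over the 4 profiles gave a two-sided p of 0.13, the smallest it allows. Against single chromosomes the mean difference ran from -0.26 for 3L to -0.30 for X. Among fragments of 100 to 1000 bp alone, it was -0.33, -0.41, -0.28 and -0.20 in the order of the profiles above. Between medians in place of means it was smaller, -0.16, -0.12, -0.09 and -0.01, and for fragments outside genes it was -0.15, -0.15, -0.12 and -0.06.

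**Figure D1:**
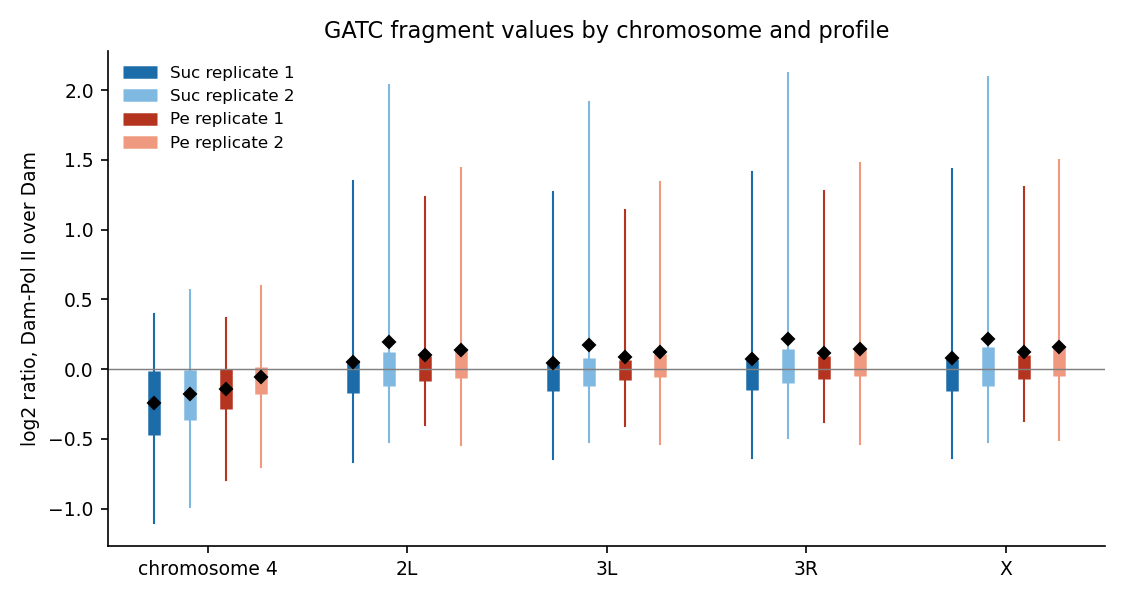
Log2 ratio (Dam-Pol II to Dam) of GATC fragments on chromosome 4 and on 2L, 3L, 3R and X, with each of the 4 profiles in its own colour. Thick bars span the 25th to the 75th percentile, thin lines the 5th to the 95th, and diamonds mark the mean, which lies below 0 for chromosome 4 in every profile and above 0 for the others.

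Both tails of the distribution differed. Fragments above 1 made up 2.20% of chromosome 4 in Suc replicate 1, 2.98% in Suc replicate 2, 1.92% in Pe replicate 1 and 1.98% in Pe replicate 2, against 7.51, 11.6, 6.77 and 8.40% of the other 4 chromosomes. Fragments below -0.5 made up 23.5, 17.5, 12.2 and 9.16%, against 7.89, 5.27, 3.12 and 5.49%. High fragments were thus scarcer and low fragments more common on chromosome 4 in each profile. Taking the profiles together, 33 fragments of chromosome 4 (0.918%) were above 1 in all 4, against 4.10% elsewhere. In contrast, 113 fragments (3.15%) were below -0.5 in all 4, against 0.599% elsewhere. Values below 0 in all 4 profiles were found at 1541 fragments (42.9%), against 19.8%.

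Fragments inside and outside genes were compared next. The 2918 fragments that overlap a gene had means of -0.26, -0.19, -0.15 and -0.06 on chromosome 4 in the order Suc replicate 1, Suc replicate 2, Pe replicate 1 and Pe replicate 2, against 0.09, 0.25, 0.14 and 0.18 on the other chromosomes. Of the 675 fragments in no gene, the 505 between the first and the last gene of the chromosome had -0.19, -0.16, -0.12 and -0.06, against -0.02, 0.02, 0.01 and 0.02. On the other chromosomes genes lay above the intervals between them in all 4 profiles. On chromosome 4 they lay below in both Suc profiles and Pe replicate 1, and in Pe replicate 2 the values were the same to 2 decimals. The choice of the 505 fragments was made after seeing the data.

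No window of similar size on 2L, 3L, 3R and X had so low a mean. When 2L, 3L, 3R and X were divided into 77 full windows of 1347 kb, the span of chromosome 4, the window means over the 4 profiles ran from -0.07 to 0.28 with a median of 0.14, and chromosome 4 was at -0.15. In each single profile, too, 0 of the 77 windows were below chromosome 4. The lowest window of each profile lay between -0.08 and -0.04. Over the profiles the lowest windows were 3L:25589690-26936515 (-0.07), 3L:22896040-24242865 (-0.06) and 3R:2693926-4040751 (-0.05). They lay toward the high-coordinate end of 3L and the low-coordinate end of 3R. In these windows 0.13, 0.25 and 0.02% of the fragments had a mean above 1. On chromosome 4 the share was 2.09%, and on 2L, 3L, 3R and X together 8.28%. Chromosome 4 thus had the lowest mean but not the lowest share of high fragments. A single division was used, and the part windows left at the chromosome ends were not counted. This description was added after the values were seen.

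Along the chromosome the low level was interrupted at few places. In 27 bins of 50 kb, the mean was below 0 in 26 bins in each Suc profile, 25 in Pe replicate 1 and 23 in Pe replicate 2. A single bin, chr4:650001-700000, lay above 0 in all 4 profiles, at 0.03, 0.13, 0.13 and 0.21 in the order Suc replicate 1, Suc replicate 2, Pe replicate 1 and Pe replicate 2. It holds gw, which encodes the GW182 protein of microRNA silencing, CG46466, Slip1, CG11360, myo, a TGF-beta family ligand gene, and part of ey. The lowest bin was chr4:850001-900000, with Gyf and part of unc-13, at -0.53, -0.40, -0.36 and -0.16. The second lowest was chr4:100001-150000, with Ank and anne, at -0.41, -0.38, -0.24 and -0.20. Past the last gene, Cadps, 61.8% of 170 fragments were at 0 in all 4 profiles, against 3.87% of the fragments within genes, and their mean of -0.05 over the profiles lay near 0.

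**Figure D2:**
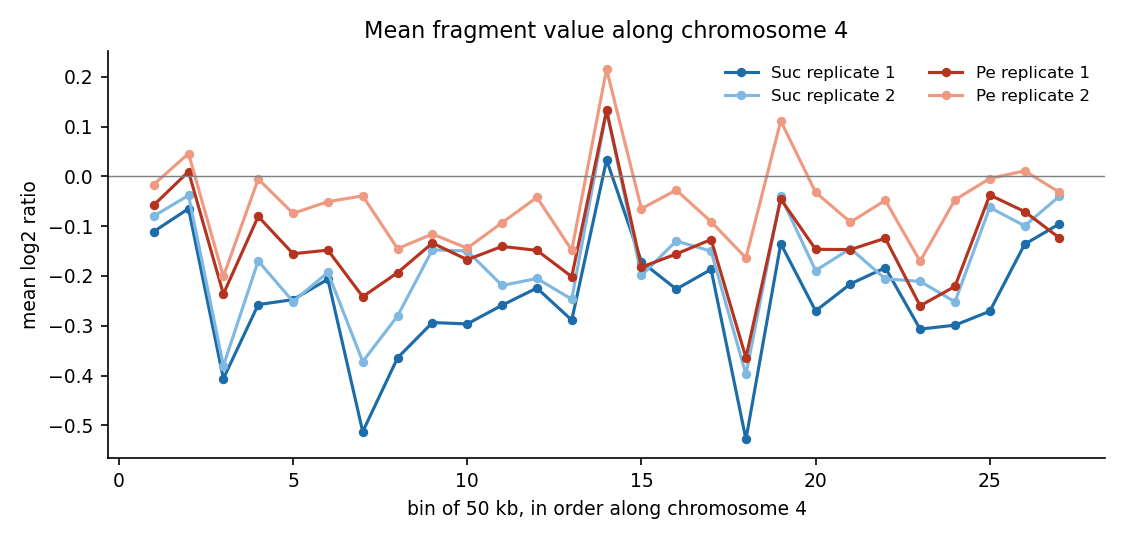
Mean log2 ratio of the fragments in each bin of 50 kb, in order along chromosome 4, with 1 line per profile. Bin 14 is the single bin above 0 in all profiles, and bins 3 and 18 are the lowest in the mean over the profiles.

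Runs of 5 or more neighbouring fragments above 0 in all 4 profiles show where the higher ratios lay. There were 16 such runs on chromosome 4, 11.9 per Mb, against 28.7 to 34.2 per Mb on the other 4 chromosomes, and they covered 4.86% of it, against 10.1 to 12.1%. All 16 overlapped a gene, which says little, since 81.2% of the single fragments of chromosome 4 did. The run with the highest mean over the profiles, 1.74, spanned chr4:66032-70225 and joined RpS3A, a protein gene of the small ribosomal subunit, to the low-coordinate end of pan. It was at 2.10 and 2.25 in Suc and 1.65 and 0.95 in Pe. Next came runs at CG31997 and CG33978 (mean 1.45), within eIF4G1, which encodes a scaffold of translation initiation (1.40), over CG46466 and Slip1 (1.37), at Mitf, a transcription factor gene of lysosome biogenesis (1.21), and at Taf3 and CG33941 (1.16). The run at Mitf spanned 21.4 kb with 5 fragments and includes the longest fragment of the chromosome, 19.6 kb.

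The highest single fragments lay both near gene edges and deep inside genes. The fragment with the highest mean, chr4:69380-69678, lies in pan, 203 bp from the edge of the gene, and had 3.28 in Suc replicate 1, 4.0 in Suc replicate 2, 2.80 in Pe replicate 1 and 0.96 in Pe replicate 2. Its Pe replicate 2 value was far below the other 3. Within eIF4G1, chr4:922639-923285 had 2.23, 3.23, 2.39 and 2.76, at 7665 bp from the nearer edge of the gene, and all 4 profiles were high there. In RpS3A, chr4:66633-66944 had 3.71, 2.31, 2.88 and 0.94, again with the lowest value in Pe replicate 2.

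Of the 86 genes tested, 28 held a fragment with a mean above 1, and at 23 of these the highest fragment lay within 1 kb of a gene edge, as every fragment of a gene under 2 kb must. At 12 of the 28 the mean of the whole gene was nevertheless below 0. PlexB, a semaphorin receptor gene, is an example. Its fragment at chr4:43217-43448 had 1.91, 2.72, 1.64 and 2.87, while the gene as a whole had -0.13, 0.01, -0.04 and 0.14. The table used here gives no strand, so that a gene's start and its end were not told apart. These counts are given for chromosome 4 alone, so that they do not show a trait particular to it.

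Long genes of chromosome 4 were lower than those elsewhere at their edges and in their interior alike. Genes of 4 kb or more, 65 on chromosome 4 and 3409 on the other chromosomes, were aligned at both edges. In the first 250 bp inside the edge the mean over the profiles was 0.02 on chromosome 4 and 0.40 elsewhere, and 2500 to 2750 bp inside it was -0.25 and 0.13. The fall from edge to interior was thus of similar size, from a level near 0 on chromosome 4. These values rest on 76 and 93 fragments of chromosome 4, and the description was added after the data were seen.

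**Figure D3:**
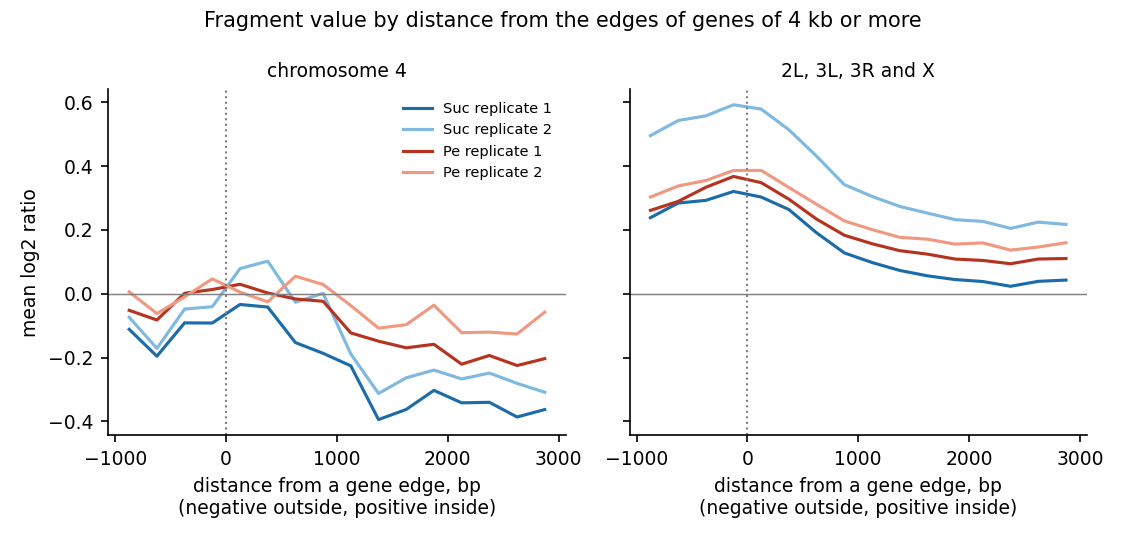
Mean log2 ratio of fragments by distance from a gene edge in steps of 250 bp, for genes of 4 kb or more on chromosome 4 (left, 65 genes) and on 2L, 3L, 3R and X (right, 3409 genes), with both edges of each gene pooled. All profiles fall inside the gene, to values below 0 on chromosome 4 and above 0 elsewhere.

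Among these long genes, 13 of 65 on chromosome 4 (20%) had a fragment above 1 within 1 kb of an edge, against 1534 of 3409 (45%). The fragments more than 1 kb from both edges, the gene's interior, had a median of -0.21 over the 13 genes, and 10 of the 13 (76.9%) had an interior below 0. The 52 genes without such a fragment had a median of -0.20, and 96.2% of them were below 0. The 13 thus had a similar median and a smaller share below 0. Elsewhere the 1534 genes had a median interior of 0.18, and 33.5% were below 0. The 1875 genes elsewhere without such a fragment had a median of -0.05, and 72.1% of them were below 0. In single profiles the interior medians were -0.31, -0.33, -0.14 and -0.09 for the 13 genes and -0.31, -0.22, -0.17 and -0.08 for the 52. For the 1534 genes elsewhere they were 0.06, 0.30, 0.17 and 0.22. For pan the fragments near the edges had means of 1.52, 1.45, 1.11 and 0.26 and the interior -0.31, -0.33, -0.20 and -0.03. For ci they were 0.32, 0.51, 0.45 and 0.14 near the edges and -0.49, -0.70, -0.33 and -0.53 inside. In both genes every profile was above 0 near the edges and below 0 inside. Since the 13 genes were picked by their edge fragments, this is a description without a test.

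The second question was which genes of chromosome 4 carried the highest signal. A gene's value is an overlap-weighted mean over its fragments, and 86 of 94 protein coding and lncRNA genes had the 3 fragments required. The median gene value was -0.24 and -0.18 in the Suc profiles and -0.12 and -0.04 in the Pe profiles, against -0.01, 0.09, 0.06 and 0.09 for 11070 genes of 2L, 3L, 3R and X. The difference of the medians was -0.20 ± 0.06 (SD over profiles, n = 4; two-sided exact sign-flip permutation p = 0.13). It was -0.26 for genes of 3 to 10 kb and -0.19 for genes over 10 kb, with the same sign in every profile. For the 17 genes under 3 kb the differences were -0.13, -0.13, -0.01 and 0.10, so that these short genes did not stand apart in every profile (mean -0.04, exact permutation p = 0.375).

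Occupancy was tested with limma, one-sided, as a condition mean above 0, over 13987 genes of all chromosomes. In Suc 6 of the 86 genes were called occupied at a Benjamini-Hochberg adjusted p under 0.05. That is 6.98%, where 21.3% of all genes were called. The share differed by gene length: under 3 kb 29.4% were called, against 22.2% on 2L, 3L, 3R and X, at 3 to 10 kb 3.45% against 20.2%, and over 10 kb 0 of 40 against 16.0%. In Pe 5 of 86 were called, 5.81%, where 7.55% of all genes were called, and the 5 were among the 6. Leaving out either Pe replicate left 0 calls in Suc and in Pe, on chromosome 4 and among all 13987 genes, although the Suc means are the same in that fit. Leaving out Suc replicate 2 left 2 in Suc (2.33%, where 6.16% of all genes were called). After quantile normalization 10 were called in Pe, 11.6% where 31.5% of all genes were. All 5 genes called in both conditions were under 4 kb long.

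CG46466 (chr4:661009-663124), a gene the table gives no other name, had the highest mean over the 4 profiles. RpS3A ranked first with unweighted means, CG33941 with fragments of a single gene and Arf4 under median and MAD scaling. The rank also changed with 1 profile left out, by the mean of the 2 condition means. Arf4 was first without Suc replicate 1 or Pe replicate 1, and CG31997 without Pe replicate 2. CG46466 was at 1.47 in Suc replicate 1, 1.22 in Suc replicate 2, 1.01 in Pe replicate 1 and 1.10 in Pe replicate 2, and the limma adjusted p was 0.0214 in Suc and 0.0458 in Pe. All 10 of its fragments had a mean above 0. Its value stood at the 91.6th percentile of all genes tested, so that many genes elsewhere reached higher values.

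Arf4 (chr4:1124167-1125325), a small GTPase gene of the ARF family, had 0.87, 0.96, 1.01 and 1.80 on 3 fragments, with Pe replicate 2 above the rest. Its limma adjusted p of 0.0499 in Suc was close to the threshold. CG31997 (chr4:154654-156060) had 1.03, 1.26, 1.28 and 0.89 on 4 fragments, and the conditions overlapped. With the median of fragments its Suc mean of 1.14 was 0.62.

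RpS3A (chr4:65225-67207) had 1.08, 1.21, 0.90 and 0.93 on 5 fragments, with both Pe profiles below both Suc profiles. CG33941 (chr4:467497-471476) had 0.42, 0.41, 0.40 and 0.55 on 16 fragments, 7 of them shared with another gene, and the profiles differed little. Without the shared fragments its means were 1.53 in Suc and 1.28 in Pe, against 0.41 and 0.47 with them, and with the median of fragments the Suc mean was 0.84. CG11076 (chr4:1029711-1031757), called in Suc only, had 0.95, 1.06, 0.59 and 0.21 (limma adjusted p = 0.0236 in Suc and 0.0866 in Pe), and without 2 shared fragments its Suc mean was 1.57.

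**Figure D4:**
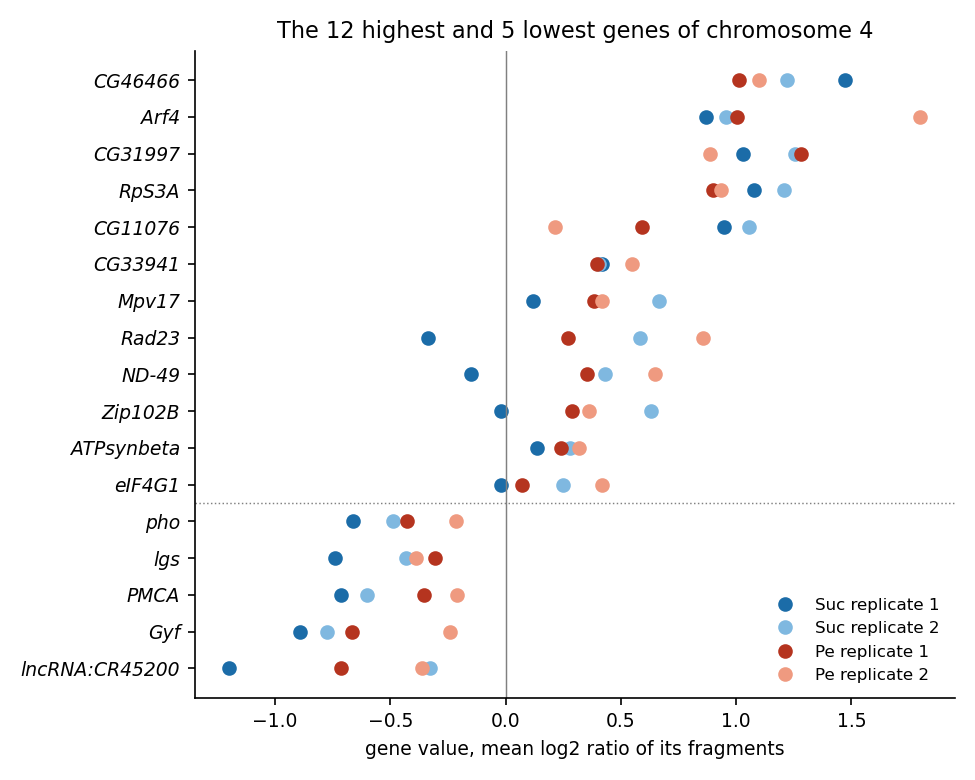
Gene value, the overlap-weighted mean log2 ratio of its fragments, in each of the 4 profiles for the 12 genes of chromosome 4 with the highest and the 5 with the lowest mean over the profiles. The highest 6 lie above 0 in every profile, and the 5 lowest lie below 0 in every profile.

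A group listed as translation, energy and protein turnover, which also holds the zinc transporter gene Zip102B and the DNA glycosylase gene Tdg, had the highest median of the 4 groups compared. Its members and those of the other groups were chosen with earlier results of these data known. The 8 genes had a median of 0.28 over the profiles, against -0.15 for all genes of chromosome 4 and 0.05 for all genes tested. Called occupied in each condition was 1 of the 8, RpS3A, where 6.98% of chromosome 4 genes were in Suc and 5.81% in Pe. By profile the group's median was -0.08 in Suc replicate 1, 0.35 in Suc replicate 2, 0.26 in Pe replicate 1 and 0.39 in Pe replicate 2. Its genes were also the shortest, with a median length of 3.35 kb against 14.5, 12.6 and 7.47 kb in the groups below, and the part of length in the contrast was not tested. ND-49, a subunit gene of respiratory complex I, had -0.15, 0.43, 0.35 and 0.65, and Rad23, a gene of ubiquitin-dependent protein turnover, had -0.33, 0.59, 0.27 and 0.86. Both were below 0 in Suc replicate 1 alone.

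ATPsynbeta, the beta subunit gene of ATP synthase, had 0.13, 0.28, 0.24 and 0.32, above 0 in all 4 profiles but with limma adjusted p of 0.0942 and 0.0699. Zip102B had -0.02, 0.63, 0.29 and 0.36. The lowest member was 4E-T, a gene of translational repression, at -0.60, -0.42, -0.33 and -0.002.

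The 18 genes listed as transcription and chromatin factors had a median of -0.16 over the profiles, close to that of the chromosome. Below 0 in all 4 profiles were 14 of 18 (77.8%), where 67.4% of chromosome 4 genes were, and 0 were called occupied, where 6.98% of chromosome 4 genes were in Suc and 5.81% in Pe. The list includes gw and Gyf, whose products are known for acting on mRNA rather than on transcription. The highest were gw, at -0.19, 0.13, 0.14 and 0.24, and Mitf, at -0.06, 0.07, 0.04 and -0.01, which both straddled 0, and fd102C, a forkhead factor gene, was at -0.12, -0.11, -0.12 and -0.05. The Pax6 genes ey and toy had Suc means of -0.16 ± 0.02 and -0.18 ± 0.002 (SD, n = 2), and sv, a Pax2 gene, -0.14 ± 0.02. The lowest were Gyf, with -0.89, -0.77, -0.66 and -0.24, then lgs, a co-activator gene of Wnt signalling, with -0.74, -0.43, -0.30 and -0.39, and pho, which encodes a DNA-binding protein of the Polycomb group, with -0.66, -0.49, -0.43 and -0.21. All 3 were below 0 in every profile and stood at percentiles of 0.27, 0.88 and 1.09 among all genes tested.

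Of 11 neuronal and synaptic genes, 10 were below 0 in all 4 profiles (90.9%, where 67.4% of chromosome 4 genes were), with a median of -0.18. None was called occupied, where 6.98% of chromosome 4 genes were in Suc and 5.81% in Pe. The exception was PlexB. The values of Cadps and unc-13, genes of vesicle release, were -0.12 and -0.13 in the mean over the profiles, and Ephrin, a guidance ligand gene, was the lowest, at -0.39, -0.41, -0.27 and -0.17.

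The 15 signalling and cytoskeleton genes had a median of -0.12. Below 0 in all 4 profiles were 8 of 15 (53.3%, where 67.4% of chromosome 4 genes were). Called occupied were 0 of 15, where 6.98% of chromosome 4 genes were in Suc and 5.81% in Pe. Among the 15, the TGF-beta ligand genes differed from each other. The gene myo had 0.22, 0.33, 0.23 and -0.19, mav -0.21, 0.21, 0.21 and 0.19, and Actbeta -0.05, -0.13, -0.03 and 0.12, and each crossed 0 between profiles. Pur-alpha, a nucleic acid binding protein gene, was the member above 0 in all 4 profiles, at 0.14, 0.05, 0.08 and 0.30, and Slip1 had -0.13, -0.04, 0.01 and 0.22. The muscle gene bt, which encodes projectin and is the gene with the most fragments on the chromosome, 158, lay at -0.10, -0.12, -0.12 and -0.05. The lowest member was PMCA, a plasma membrane calcium pump gene, at -0.72, -0.60, -0.35 and -0.21.

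Values below 0 were the rule for chromosome 4 genes. In all 4 profiles 58 of 86 genes (67.4%) were below 0, against 20.6% of all genes tested, and 9 (10.5%) were above 0, against 37.8%. In the limma test of the mean below 0, added after the data were seen, 56 genes (65.1%) had an unadjusted p under 0.05 in Suc, where 15.8% of all genes did, and 27 (31.4%) in Pe, where 7.95% did. After adjustment over all genes 0 passed in either condition (smallest limma adjusted p on chromosome 4 = 0.202 in Suc and 0.554 in Pe). Without Suc replicate 1 the count in Suc was 35 (40.7%, where 5.26% of all genes passed). Without Pe replicate 1 the count in Pe was 6 (6.98%, where 5.55% passed), and without Pe replicate 2 it was 16 (18.6%, where 3.28% passed). The lowest gene value was that of lncRNA:CR45200, with -1.20, -0.33, -0.71 and -0.36 on 4 fragments.

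The third comparison set Pe against Suc. The fragments of chromosome 4 had a mean of -0.21 ± 0.05 in Suc and -0.10 ± 0.06 in Pe (SD, n = 2), and the 2 conditions did not overlap. The difference of 0.11 had an exact two-sided permutation p of 0.33, the smallest that 2 against 2 allows, and it was 0.07 without Pe replicate 2. Relative to 2L, 3L, 3R and X the values were -0.30 and -0.38 in Suc and -0.25 and -0.20 in Pe (difference 0.12, exact permutation p = 0.33).

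This separation depended on the scaling of the profiles. The SD over the fragments of the other 4 chromosomes was 0.599 and 0.784 in Suc and 0.50 and 0.61 in Pe. After quantile normalization the values relative to the other chromosomes were -0.29 and -0.32 in Suc and -0.32 and -0.20 in Pe, and with each profile divided by its SD they were -0.32 and -0.30, and -0.31 and -0.20. Under median and MAD scaling they were -0.25 and -0.33, and -0.31 and -0.24. In these 3 scalings the conditions overlapped (exact permutation p = 0.667 in each), and chromosome 4 stayed below the other chromosomes in all 4 profiles.

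**Figure D5:**
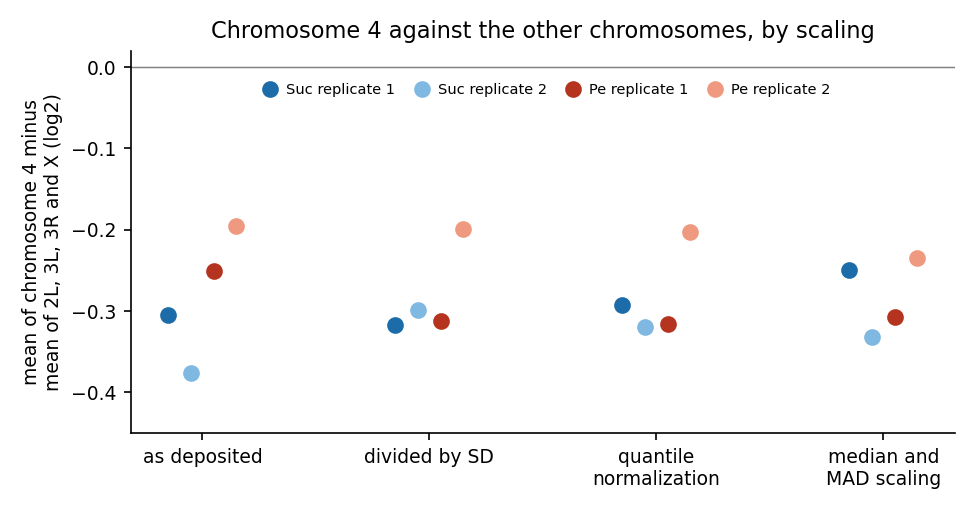
Mean log2 ratio of chromosome 4 minus that of 2L, 3L, 3R and X in each profile, for the deposited values and for 3 other scalings of the profiles. All points lie below 0, and the Pe and Suc points are apart as deposited and overlap after each of the other scalings.

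No gene of chromosome 4 passed limma's two-sided test between the conditions. Of 86 genes 0 were higher and 0 lower in Pe after adjustment over all 13987 genes, of which 0.00% were called in each direction (smallest limma adjusted p = 0.896). At an unadjusted p under 0.05, 2 were higher, 2.33% where 1.65% of all genes were, and 1 was lower, 1.16% where 2.29% were. The count of higher genes was 12 of 86 with the median of fragments, where 3.03% of all genes were higher. With the replicate number as a block it was 7 of 86, where 3.25% of all genes were. With 1 profile left out, the median difference over chromosome 4 genes ran from 0.0876 without Suc replicate 1 to 0.182 without Suc replicate 2. Over all genes it was -0.0453 and 0.0791 in these 2 fits. At 52 of 86 genes (60.5%) the Pe values were both higher than the Suc values, where 23.0% of all genes did, and at 4 both were lower (4.65%), where 14.0% did. The median difference was 0.13 on chromosome 4 and 0.02 over all genes. After quantile normalization 23 genes (26.7%) had both Pe values higher, where 20.2% of all genes did, and under median and MAD scaling 33 (38.4%), where 20% did.

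Since none passed, the 5 genes ranked first in each direction are described by their values. PMCA had a difference of 0.38 (SE 0.08) and CaMKII, the gene of a calcium-dependent kinase, 0.21 (SE 0.07). CaMKII was at -0.43 and -0.38 in Suc and -0.24 and -0.15 in Pe. Tdg had a difference of 0.28, Rnf11 0.30 and pan 0.15. All 5 genes had Suc values below 0 in both replicates, so the differences lie between negative ratios or end near 0.

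In the other direction, CG11076 had -0.60 (SE 0.17), CG46466 -0.29, myo -0.26, RpS3A -0.23 and CG11155 -0.05. Of these, CG11076, CG46466 and RpS3A were among the 5 highest genes of the chromosome, and both Pe profiles lay below both Suc profiles at each of the 3. The difference of RpS3A turned to 0.13 under median and MAD scaling, and that of CG46466 to 0.14.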

How the data were processed

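Per the labels' protocols, midgut DNA was digested at methylated GATC sites, joined to adaptors and amplified. The deposited values, 1 for each GATC fragment, are taken as log2 ratios (Dam-Pol II to Dam) from their range and their sign. The sources used here do not give the log base, aligner or scaling. The genome is BDGP 6, per the submitters' processing notes. For Suc replicate 2 the track name in the file has a different number, and the labels were followed. The 28 mitochondrial fragments were left out. Neighbouring fragments are not independent: their values correlated at 0.704 to 0.735 within a profile on chromosome 4, and 2.59% of fragments repeated the neighbour's values.

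Genes came from a RefSeq table of Release 6 without strand or exons, so that overlapping and antisense genes cannot be told apart. On chromosome 4, 48.8% of tested genes shared a fragment with another gene, against 77.3% of all genes tested. The part of such sharing in the contrasts between chromosomes was not tested. Of 15930 protein coding and lncRNA genes, 14083 held 3 or more fragments. After removal of 96 genes whose values were all 0, 13987 remained for limma 3.58.1 in R 4.3.3. The fit used 1 spread for both conditions, a prior variance trended on fragment number, and Benjamini-Hochberg adjustment at 0.05. The size of difference between Pe and Suc that this fit can detect in these profiles was not tested. Python 3.11.15, numpy 2.4.6 and pandas 2.3.3 gave the summaries. The labels call the replicates biological.

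The chromosome, the gene groups and the tests were chosen with earlier results of these data known. Genes named are the 12 highest and 5 lowest, the 5 smallest p in each direction between conditions, and the highest and lowest members of each group. Genes of runs, bins and gene edges, and toy, sv, bt and Actbeta, were named after their values were seen. Alternatives were other scalings, fragment sets, gene values and filters, a single prior variance, a block for the replicate number, and each profile left out in turn. The descriptions by window, gene edge and gene length, the scaling by SD and the test below 0 were added after seeing the data.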

Additional observations from a re-analysis of the deposited data

How the results depend on the processing

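Chromosome 4 stayed below 2L, 3L, 3R and X under every scaling, fragment set and summary tried, and leaving out 1 profile gave -0.31 to -0.25. The difference between Pe and Suc kept its sign, at 0.0668 to 0.15 without 1 profile and, relative to the other chromosomes, 0.0817 to 0.15. The 16 runs (4.86%) became 5 (1.21%) with 10 or more fragments and 4 (0.654%) above 0.5. Of genes occupied in Suc, 3 were called with 10 or more fragments (4.23%, all genes 21.0%), 2 with the median of fragments (2.33%, all genes 7.33%) and 0 to 6 without 1 profile. In Pe 10 were called after quantile normalization (11.6%, all genes 31.5%), 1 with 10 or more fragments (1.41%, all genes 3.74%), 0 with the median (all genes 0), 2 with fragments of a single gene (2.38%, all genes 0.84%) and 0 to 6 without 1 profile. Unadjusted counts below 0 were 35 to 54 in Suc and 6 to 21 in Pe without 1 profile, and 42 in Pe after quantile normalization. Leaving out 1 profile called 0 genes between conditions.

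The replicate numbers are shared by the labels alone. Profiles with the same number deviated together at r = 0.285 over 13987 genes and at r = 0.21 over the 86 genes of chromosome 4. With the replicate number as a block, 0 genes of chromosome 4 differed between conditions, 6 (6.98%, all genes 28.7%) were occupied in Suc and 7 (8.14%, all genes 23.5%) in Pe.

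Signs turned in Suc with the median of fragments for Rad23 (-0.25; -0.0226 with unweighted means), ND-49 (-0.00115) and eIF4G1 (-0.15). Leaving out 1 profile moved the Suc mean from -0.33 to 0.59 for Rad23, -0.15 to 0.43 for ND-49, -0.0184 to 0.63 for Zip102B and -0.0204 to 0.25 for eIF4G1. Between conditions they turned for RpS3A (0.00398 after quantile normalization, 0.13 under median and MAD scaling), CG46466 (0.14 under the latter) and myo (0.15 with the median). The cause was not tested. Depth is unknown, so no limit that needs it is given.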
